A study of Mus musculus with 4 samples.

Results

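The cells described here are skin macrophages chosen by their summed mRNA of Folr2, Lyve1 and Cd163, which encode surface proteins used as markers of long-lived tissue macrophages. They were picked by their own counts: a cell needed at least 10 UMIs (unique molecular identifiers, each standing for 1 captured mRNA) of C1qa, C1qb and C1qc together, at least 5 UMIs of Folr2, Lyve1 and Cd163 together, no Cd3e, Cd3d or Cd3g UMI, and less than 1% of its UMIs from Col1a1, Col1a2, Col3a1 and Dcn. The rule gave 1519 cells of 17407 kept cells in 3 libraries. Of these, 289 came from the DMBA/TPA Cd226-/- library, 225 from the DMBA/TPA WT library and 1005 from the naive CD45+ library, out of 6682, 7212 and 3513 kept cells. Cells were kept from 1000 UMIs and 500 genes upward where mitochondrial UMIs were no more than 10%. The 1519 cells are called members below.

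The study took back skin of BALB/c mice that were wild type (WT) or lacked Cd226, the gene of the adhesion receptor DNAM-1. For the DMBA/TPA Cd226-/- and DMBA/TPA WT libraries, 25 µg of the carcinogen DMBA was painted on the skin once in acetone. From 1 week later 5 µg of the tumour promoter TPA was applied once weekly for 3 weeks, and cells were taken 3 weeks after. For each genotype the cells of 3 mice were pooled, and the sorted CD45+ and CD45- cells were then mixed 1:1. The naive CD45+ library was sorted for CD45+ cells only and is a pool of WT and Cd226-/- cells, so it has no genotype of its own. A naive CD45- library, also a pool of both genotypes, is used only where it is named. The sources used here give neither age nor sex. The deletion is in all cells of the Cd226-/- mice as far as the labels say, and no cell type that drives it is named. Each group is 1 library, so there is no replicate check: no p-value is given, and intervals (95%, exact) cover counting error only.

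Macrophages of the skin fall into cells that settle early and renew in place and cells that come from blood monocytes. The settled cells of many tissues lie along vessels and nerves, carry the folate receptor FOLR2, the hyaluronan receptor LYVE1 and the haemoglobin scavenger receptor CD163, and clear dying cells, iron and serum proteins. Monocyte-derived cells carry CCR2 and, in many tissues, more MHC class II, the molecules that show peptides to CD4 T cells. Interferons of type I and interferon-γ switch on overlapping but distinct gene sets in both.

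The naive CD45+ library held 42043869 gene UMIs, and the others used here held 71245703 (DMBA/TPA Cd226-/-) and 72606822 (DMBA/TPA WT). Members summed to 2743761 UMIs in Cd226-/-, 1756137 in WT and 13315817 in naive skin, with medians of 7179, 6099 and 10782 UMIs per member. Naive members were thus read more deeply, and levels are given as UMIs per 1000000 member UMIs (CPM) to scale for total UMIs. CPM does not undo the fixed UMI thresholds of the rule, by which depth also affects which cells are members. With cells of at least 3000 UMIs thinned to 3000 before the rule, 193 Cd226-/-, 158 WT and 575 naive cells were members. Kept cells of 2 libraries shared 6 to 21 barcodes, and no barcode was a member in both. Cell doublets called by Scrublet were 2.41% of kept cells in Cd226-/-, 2.36% in WT and 0.256% in naive skin, where the caller marked only 9 cells and did not work. Among the members 1, 1 and 6 cells were called doublets.

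The macrophage label was checked with markers that the rule did not use. Mrc1, the mannose receptor, had a UMI in 100% of Cd226-/- members, 99.6% of WT members and 99.2% of naive members, against 3.80%, 1.95% and 10.8% of fibroblasts of the same libraries. All 7 of 7 other macrophage markers had UMIs, with summed levels of 8885 CPM in Cd226-/-, 9382 CPM in WT and 9569 CPM in naive members. The antibody tag for CD45 had a median of 632 counts in Cd226-/- members, 567 in WT members and 644 in naive members, against 7, 6 and 13 in fibroblasts. Of the 8 T and NK cell markers, Cd3e, Cd3d and Cd3g were at 0 by the rule, and Trac, which it did not use, was also at 0 in the 3 libraries. The 8 markers summed to 66.0 CPM in Cd226-/-, 59.8 CPM in WT and 30.6 CPM in naive members, with a UMI in 15.9%, 15.1% and 12.3% of them.

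Markers of other cell types also had UMIs in the members, and their levels differed between libraries. Whether these UMIs came from other cells was not tested. The 7 fibroblast markers summed to 468 CPM in Cd226-/-, 735 CPM in WT and 103 CPM in naive members. For 8 fibroblast genes outside the rule, the members' level was 0.784% of that of fibroblasts in Cd226-/-, 0.884% in WT and 0.144% in naive skin. The 6 neutrophil markers summed to 460 CPM, 208 CPM and 555 CPM, the 4 Langerhans cell markers to 252 CPM, 347 CPM and 29.6 CPM, and the 6 dendritic cell markers to 638 CPM, 550 CPM and 289 CPM, in the same order. Of the 3852 dendritic cell marker UMIs in naive members, 3292 were of Cd209a. The treated members are not broken down in this way here. Ccr7, another of these markers, was higher in them than in naive members, by the values given below. In the WT library the 5 melanocyte markers had 72.3 CPM, spread over 39.6% of the members, against 2.92 CPM in Cd226-/- and 0.451 CPM in naive members. The 3 erythroid markers had 2163 CPM in WT members, of which 3790 of 3799 UMIs lay in 1 cell. The part of this RNA in the results below was not tested, apart from the values given beside them.

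Cd226 itself can hardly be read in these cells. It had 7 UMIs in Cd226-/- members, 5 in WT members and 33 in naive members (2.55, 2.85 and 2.48 CPM). The sources used here do not place the deleted part relative to the 3′ reads, and these counts therefore check nothing. The DNAM-1 antibody tag had a median of 2 counts in T cells of the Cd226-/- library, 47 in those of the WT library and 11 in those of the naive CD45+ pool. Members had medians of 5, 25 and 13 counts of the same tag, and fibroblasts of 2, 16 and 10, so the tag background differed between libraries.

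The levels of the rule genes are a description of what chose the cells. The summed C1q and Folr2, Lyve1 and Cd163 level was 14476 CPM in Cd226-/- members, 15649 CPM in WT members and 13784 CPM in naive members. Cd163 had 1279 CPM in Cd226-/-, 1561 CPM in WT and 593 CPM in naive members. Lyve1 had 551 CPM, 485 CPM and 165 CPM, and Folr2 had 849.9 CPM, 833 CPM and 1184 CPM, in the same order. Both DMBA/TPA libraries were thus high in Cd163 and Lyve1 and the naive library was high in Folr2. Exactly 5 UMIs of Folr2, Lyve1 and Cd163 were counted in 17 Cd226-/- members, 7 WT members and 62 naive members, and exactly 4 in 19, 9 and 54 cells that were left out for that. At the C1q threshold, 2, 2 and 4 members had 10 to 12 UMIs, and 4, 1 and 8 cells with 7 to 9 UMIs were left out.

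Members made up 7.94% of the Ptprc-positive kept cells (Ptprc encodes CD45) of the Cd226-/- library (Clopper-Pearson 95% interval 7.01 to 8.95). They made up 10.6% of those of the WT library (9.27 to 12.1) and 29.7% of those of the naive CD45+ library (28.1 to 31.4). Of the cells past the C1q threshold, members were 60.7% in Cd226-/- (56.2 to 65.1), 52.8% in WT (48.0 to 57.6) and 67.7% in naive skin (65.2 to 70.1). Kept cells with a Ptprc UMI were 46.0% of Cd226-/- cells, 25.9% of WT cells and 88.0% of naive CD45+ cells, and what set these shares, beside the different sorts, was not tested. The denominators above therefore count Ptprc-positive cells and C1q macrophages. Members with no Ptprc UMI were 45 in Cd226-/-, 26 in WT and 86 in naive skin.

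**Figure D1:**
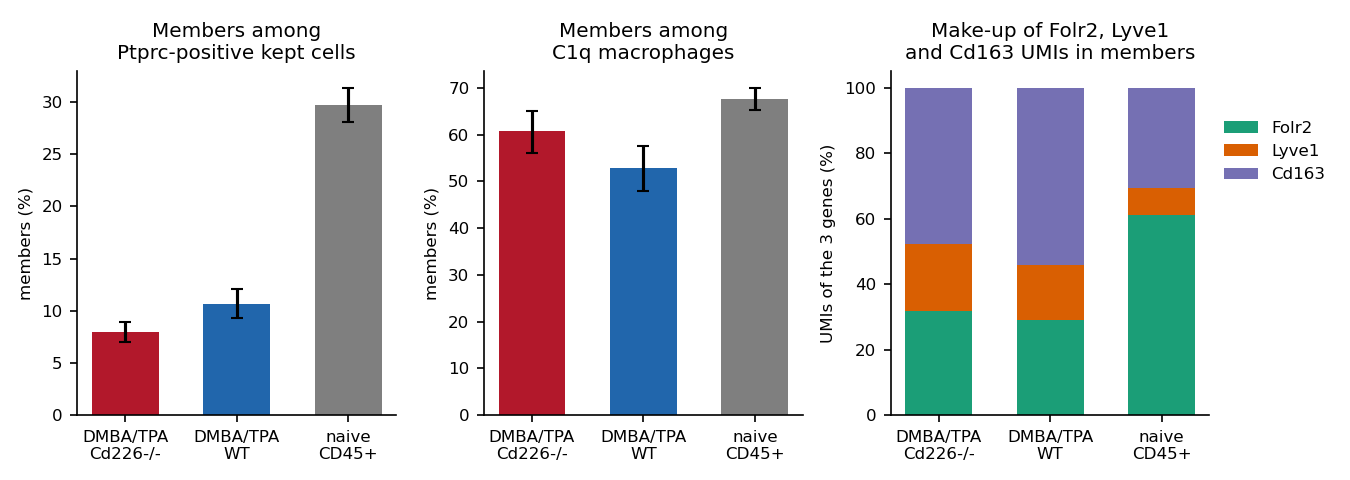
Members as a percent of Ptprc-positive kept cells (left) and of C1q macrophages (middle), with exact 95% binomial intervals for counting error, and the percent of Folr2, Lyve1 and Cd163 UMIs that each gene gives (right), by library. Members are 7.94% of Ptprc-positive cells in Cd226-/- skin, 10.6% in WT skin and 29.7% in naive skin, and Folr2 gives 31.7%, 28.9% and 61.0% of the UMIs of the 3 genes.

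The members were not uniform in the genes that chose them. A Lyve1 UMI was found in 78.5% of Cd226-/- members, 76.0% of WT members and 38.8% of naive members. With each cell of at least 3000 UMIs thinned to 3000, and 13, 17 and 17 shallower cells left out, these shares were 64.6%, 62.5% and 24.2%. The naive share stayed lowest at equal depth, but the members had been chosen before thinning. A Folr2 UMI was found in 91.0%, 94.7% and 98.8% of members and a Cd163 UMI in 79.9%, 92.0% and 72.2%. UMIs of all 3 genes were found in 59.5% of Cd226-/- members, 66.2% of WT members and 30.8% of naive members. Cells with Folr2 but neither Lyve1 nor Cd163 numbered 6 in Cd226-/-, 1 in WT and 199 in naive skin. MHC class II transcripts (H2-Aa, H2-Ab1, H2-Eb1 and Cd74) spread widely from cell to cell. They took a median of 1.53% of a Cd226-/- member's UMIs (10th to 90th percentile 0.108 to 4.03), 2.43% in WT (0.607 to 4.76) and 0.764% in naive skin (0.0220 to 4.19).

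How did these macrophages differ between carcinogen-treated and naive skin? Most genes on the lists of recruited monocytes, matrix remodelling, inflammation, chemokines and glycolysis were higher in the members of both DMBA/TPA libraries, and most genes of the type I interferon response were lower. The lipid and clearance lists had more genes lower than higher, as had all genes compared. A gene was compared when it had at least 50 UMIs over both libraries, and counted as higher or lower from 1.5-fold. Between Cd226-/- and naive members 10.4% of 9824 genes were higher and 19.0% lower. Between WT and naive members 9.02% of 9753 genes were higher and 15.4% lower. Both comparisons share the naive members, so their likeness is not independent. They also differ in sort, in depth per cell and in the pooled genotypes of the naive library, and treatment cannot be told apart from these.

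Recruited monocyte genes were mostly higher after DMBA/TPA. Of 16 genes compared, 11 were higher and 0 lower in Cd226-/- members (median log2 ratio 1.78), and 11 were higher and 1 lower in WT members (median 1.27), beside medians over all genes of -0.07 and -0.05. Vcan, which encodes the matrix proteoglycan versican, had 262 CPM in Cd226-/- members, 147 CPM in WT members and 21.0 CPM in naive members. That was 12.4-fold (10.8 to 14.3) and 7.01-fold (5.90 to 8.33) above naive. Hp, encoding the haemoglobin-binding protein haptoglobin, had 121 CPM, 95.1 CPM and 8.86 CPM in the same order, and Thbs1, encoding thrombospondin, had 278 CPM, 167 CPM and 25.7 CPM. Both treated libraries were high and the naive library low for each of these genes. Chil3, a chitinase-like protein of mouse myeloid cells, had 130.5 CPM in Cd226-/-, 87.7 CPM in WT and 11.2 CPM in naive members. Ccr2, the receptor for monocyte recruitment, differed less, with 441 CPM, 378 CPM and 248 CPM. Ly6c2, a surface antigen of fresh blood monocytes, did not follow: it had 113 CPM in Cd226-/-, 75.7 CPM in WT and 144 CPM in naive members. The 5 monocyte markers summed to 1569 CPM in Cd226-/-, 1221 CPM in WT and 770 CPM in naive members. Vcan and Thbs1 were also high in fibroblasts, at 299 CPM and 317 CPM in Cd226-/-, 346 CPM and 270.4 CPM in WT, and 147 CPM and 79.1 CPM in naive skin.

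The genes that define the settled state were split. Of 25 resident macrophage genes outside the rule, 3 were higher and 7 lower in Cd226-/- members, and 1 was higher and 7 lower in WT members (median log2 ratios 0.09 and -0.23). Mrc1 had 3161 CPM in Cd226-/-, 2684 CPM in WT and 2397 CPM in naive members. The chemokine gene Pf4 had 2918 CPM, 2733 CPM and 2735 CPM, and F13a1, encoding a clotting factor subunit made by such macrophages, had 1601 CPM, 1515 CPM and 1372 CPM. These 3 genes stayed within 1.5-fold of naive members in both treated libraries. Cd209d, a C-type lectin of the DC-SIGN family, had 818 CPM in Cd226-/- and 704 CPM in WT, against 437 CPM in naive members (1.87-fold, 1.78 to 1.97, and 1.61-fold, 1.52 to 1.72). Selenop, the selenium carrier, had 1699 CPM in Cd226-/- and 2279 CPM in WT, against 6030.4 CPM in naive members. Igf1, the insulin-like growth factor, had 182 CPM and 171 CPM, against 344 CPM in naive members. Both were thus lower in treated skin, by 3.55-fold (3.45 to 3.66) and 2.65-fold (2.56 to 2.73) for Selenop, and by 1.89-fold (1.73 to 2.08) and 2.01-fold (1.79 to 2.27) for Igf1.

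Clearance genes were split, with more of them lower than higher in treated skin, as for all genes compared. Of 19 scavenging and clearance genes compared, 3 were higher and 7 lower in Cd226-/- members, and 3 were higher and 9 lower in WT members (median log2 ratios -0.42 and -0.58, and 0.21 for Cd226-/- when cells were thinned to 3000 UMIs before the rule). Those higher in both were Msr1, a scavenger receptor for modified lipoproteins, and the IgG receptors Fcgr2b and Fcgr4. Fcgr2b had 1361 CPM in Cd226-/-, 1241 CPM in WT and 689 CPM in naive members. Cd36, which takes up fatty acids and oxidised lipoproteins, had 30.6 CPM in Cd226-/-, 41.0 CPM in WT and 351 CPM in naive members. That made Cd36 11.5-fold lower (9.23 to 14.4) in Cd226-/- and 8.55-fold lower (6.78 to 10.9) in WT than in naive members. Stab1, the clearance receptor stabilin, had 395 CPM, 404 CPM and 661 CPM, and Colec12, a collectin scavenger receptor, had 163 CPM, 151 CPM and 325 CPM. The efferocytosis receptor gene Axl, which has a role in taking up dying cells, had 14.6 CPM, 19.4 CPM and 31.8 CPM, while Mertk, a receptor of the same family, had 34.6 CPM, 18.8 CPM and 27.3 CPM.

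Lipid and lysosome genes were lower more often than higher, as were all genes compared. In Cd226-/- members 2 of 23 were higher and 7 lower (median log2 ratio -0.30). In WT members 1 was higher and 8 lower (median -0.35). Over all genes, 10.4% were higher and 19.0% lower in Cd226-/- members (median -0.07). The all-gene shares in WT members were 9.02% higher and 15.4% lower (median -0.05). Lpl, encoding the lipase that frees fatty acids from lipoproteins, had 50.7 CPM in Cd226-/- and 34.2 CPM in WT, against 450.4 CPM in naive members. It was 8.89-fold lower (7.51 to 10.6) in Cd226-/- and 13.2-fold lower (10.2 to 17.3) in WT. Lipa, the lysosomal acid lipase, had 83.5 CPM, 104 CPM and 253 CPM, and Pltp, which transfers phospholipids, had 800.4 CPM, 833 CPM and 1740.3 CPM. Trem2, a lipid-sensing receptor, had 151 CPM in Cd226-/-, 84.8 CPM in WT and 299 CPM in naive members. Fabp5, a fatty acid carrier, went the other way, with 863 CPM, 373 CPM and 163 CPM. In haem and iron handling 0 of 13 genes were higher in either comparison, and 4 were lower in Cd226-/- and 3 in WT (median log2 ratios -0.25 and -0.15). Slc40a1, the iron exporter ferroportin, had 3 UMIs in each treated library (1.09 CPM in Cd226-/- and 1.71 CPM in WT), against 15.5 CPM in naive members.

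Inflammatory mediators and chemokines were mostly higher. Of 23 inflammatory genes, 15 were higher and 2 lower in Cd226-/- members (median log2 ratio 1.15), and 13 were higher and 2 lower in WT members (median 0.79). Saa3, an acute-phase serum amyloid protein, had 839 CPM in Cd226-/- members, 324 CPM in WT members and 13.8 CPM in naive members. The naive library was far below both, by 60.7-fold (52.2 to 70.9) for Cd226-/- and 23.4-fold (19.8 to 27.8) for WT. A Saa3 UMI was found in 42.2% of Cd226-/- members, 25.3% of WT members and 1.59% of naive members, and in 13.6%, 8.58% and 0.400% of T cells of those libraries (median UMIs 4149, 4554.5 and 5729.5). Fibroblasts carried more, at 2683 CPM in Cd226-/-, 1033 CPM in WT and 127 CPM in naive skin, in the same order of libraries. Il1b had 1171 CPM in Cd226-/-, 933 CPM in WT and 396 CPM in naive members. Ptgs2, the enzyme that starts prostaglandin synthesis, had 414 CPM, 245 CPM and 61.7 CPM, and the cytokine gene Osm had 401 CPM, 228 CPM and 59.3 CPM. The cytokine gene Tnf stayed within 1.5-fold, with 69.6 CPM in Cd226-/-, 75.2 CPM in WT and 57.5 CPM in naive members. Il10, an anti-inflammatory cytokine, had 63.4 CPM, 40.4 CPM and 17.2 CPM.

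Among chemokine ligands 13 of 20 were higher and 1 lower in Cd226-/- members, and 10 of 19 were higher and 0 lower in WT members. Ccl6 had 6996 CPM in Cd226-/-, 6177 CPM in WT and 1779.8 CPM in naive members, and Ccl9 had 3651 CPM, 2951 CPM and 1001 CPM. Both attract myeloid cells in the mouse. The neutrophil attractant gene Cxcl2 had 3671 CPM in Cd226-/-, 2756 CPM in WT and 1201 CPM in naive members. Ccl8 had 8249 CPM in Cd226-/-, 11321 CPM in WT and 11255 CPM in naive members and stayed within 1.5-fold. The receptor gene Ccr1, whose product responds to several of these ligands, had 270.4 CPM in Cd226-/-, 287 CPM in WT and 48.7 CPM in naive members. Il4ra, the receptor subunit for interleukin-4 and interleukin-13, had 1019 CPM in Cd226-/-, 671 CPM in WT and 112 CPM in naive members (9.10-fold, 8.55 to 9.70, and 6.0-fold, 5.55 to 6.48). Csf1r, the receptor that macrophages need for survival, had 522 CPM, 613 CPM and 1029 CPM, and Cx3cr1, the fractalkine receptor, had 15.7 CPM, 17.1 CPM and 66.7 CPM. Both were lower in each treated library. Of 27 cytokine and chemokine receptor genes compared, 9 were higher and 6 lower in Cd226-/- members (median log2 ratio 0.03). Of 26 compared in WT members, 7 were higher and 7 lower (median -0.10).

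Matrix genes and glycolysis genes were mostly higher in both treated libraries. Of 18 matrix remodelling genes, 14 were higher and 1 lower in Cd226-/- members and also in WT members (median log2 ratios 1.73 and 1.65). Mmp19, a metalloproteinase, had 225 CPM in Cd226-/-, 244 CPM in WT and 59.9 CPM in naive members. Fn1, encoding fibronectin, had 380.5 CPM, 257 CPM and 101 CPM, and Timp1, a metalloproteinase inhibitor, had 126 CPM, 104 CPM and 22.9 CPM. Fibroblasts had more of Fn1 and Timp1, namely 2556 CPM and 941 CPM in Cd226-/-, 2026 CPM and 874 CPM in WT, and 3287 CPM and 237 CPM in naive skin. Of the 591 Mmp12 UMIs in Cd226-/- members, 344 lay in 1 cell. Of 19 glycolysis and hypoxia genes, 13 were higher and 0 lower in Cd226-/- (median 0.81), and 10 were higher and 1 lower in WT (median 0.62). Hif1a, the hypoxia-responsive factor, had 309 CPM in Cd226-/-, 211 CPM in WT and 72.9 CPM in naive members, and the glycolytic enzyme gene Pkm had 898 CPM, 619 CPM and 299 CPM. The glucose transporter gene Slc2a1 had 31.7 CPM, 31.3 CPM and 5.93 CPM.

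**Figure D2:**
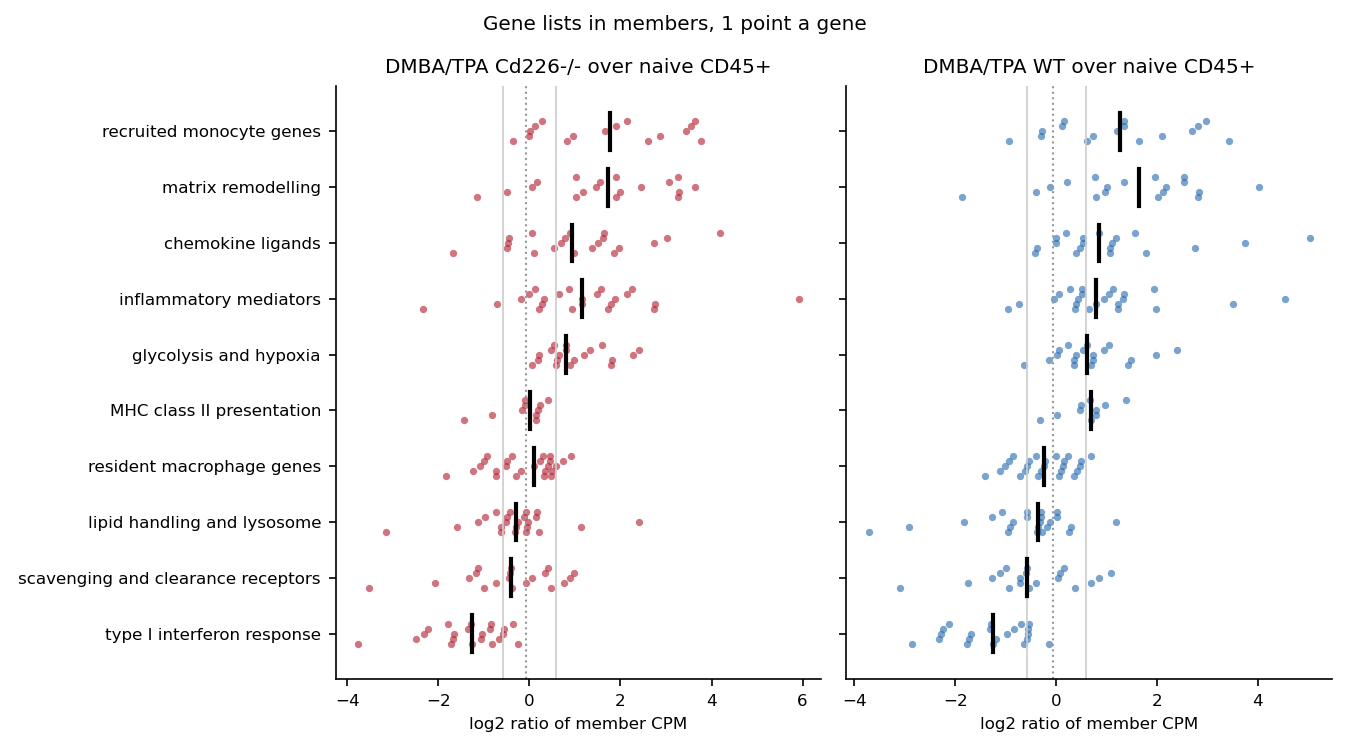
Log2 ratio of each listed gene in DMBA/TPA Cd226-/- members and in DMBA/TPA WT members over naive CD45+ members, by gene list (points are genes, black ticks are list medians, solid grey lines mark 1.5-fold either way, the dotted line is the median over all genes compared). Recruited monocyte genes have medians of 1.78 and 1.27, and type I interferon genes have medians of -1.25 and -1.24.

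The type I interferon response was lower in both treated libraries than in naive members. Of 21 genes, 17 were lower and 0 higher in Cd226-/- members (median log2 ratio -1.25), and 16 were lower and 0 higher in WT members (median -1.24). All 21 lay below naive in both comparisons. Rsad2, encoding the antiviral enzyme viperin, had 31.7 CPM in Cd226-/- members, 31.3 CPM in WT members and 148 CPM in naive members (4.67-fold lower, 3.77 to 5.86, and 4.73-fold lower, 3.62 to 6.30). Isg15, a ubiquitin-like modifier, had 117 CPM in Cd226-/-, 125 CPM in WT and 246 CPM in naive members. The treated libraries differed little from each other and both were below naive skin. Irf7, the factor that amplifies the response, had 106 CPM, 104 CPM and 259.8 CPM, and Ifit2, an antiviral effector, had 15.7 CPM, 15.9 CPM and 77.7 CPM. Fibroblasts had 112 CPM of Isg15 in Cd226-/- skin, 79.2 CPM in WT skin and 239 CPM in naive skin, where it was also highest. Tlr7, the endosomal RNA sensor, had 33.5 CPM in Cd226-/-, 39.3 CPM in WT and 83.4 CPM in naive members. The pattern recognition list did not follow: of 18 genes 7 were higher and 3 lower in Cd226-/- members (median log2 ratio 0.17). In WT members 8 were higher and 3 lower (median 0.14). Siglec1, an interferon-inducible sialic acid receptor, had 62.7 CPM, 57.5 CPM and 138 CPM.

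The promoters of Rsad2, Isg15 and Gbp7 are printed because these genes carry the interferon results and show the sequence elements of the 2 responses. Type I interferon acts through interferon-stimulated response elements and interferon-γ through gamma-activated sites. Each window runs from 250 bases before to 50 bases after the annotated start and is 300 bases long (RefSeq, GRCm38.p6, 5′ to 3′ on the gene's strand). Capitals mark matches on either strand to GAAANNGAAA or TTCNNNGAA, where N is any base.
Rsad2, chr12:26456403-26456702, minus strand: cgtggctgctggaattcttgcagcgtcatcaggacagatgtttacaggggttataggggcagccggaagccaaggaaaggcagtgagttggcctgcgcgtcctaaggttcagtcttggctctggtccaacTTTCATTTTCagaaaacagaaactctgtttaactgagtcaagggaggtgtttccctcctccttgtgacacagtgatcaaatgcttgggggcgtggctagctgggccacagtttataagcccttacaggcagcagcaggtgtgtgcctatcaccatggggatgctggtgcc
Isg15, chr4:156200769-156201068, minus strand: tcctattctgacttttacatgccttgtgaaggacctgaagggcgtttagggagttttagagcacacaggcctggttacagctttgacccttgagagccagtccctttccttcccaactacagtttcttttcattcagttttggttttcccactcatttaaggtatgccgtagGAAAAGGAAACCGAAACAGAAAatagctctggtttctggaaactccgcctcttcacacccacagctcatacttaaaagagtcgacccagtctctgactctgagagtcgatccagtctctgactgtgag
Gbp7, chr3:142530086-142530385, plus strand: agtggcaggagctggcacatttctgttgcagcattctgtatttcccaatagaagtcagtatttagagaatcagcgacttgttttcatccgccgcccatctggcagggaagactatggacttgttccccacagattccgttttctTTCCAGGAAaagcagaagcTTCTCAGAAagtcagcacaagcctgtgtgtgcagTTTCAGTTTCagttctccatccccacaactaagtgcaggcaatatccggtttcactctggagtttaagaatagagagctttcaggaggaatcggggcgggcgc
For GAAANNGAAA, Rsad2 held 1 match, starting at -120 from the start site, and Isg15 held 3 overlapping matches, starting at -78, -72 and -66. Neither held TTCNNNGAA. Gbp7, an interferon-γ-inducible guanylate-binding protein gene, held both: 2 matches to TTCNNNGAA, starting at -106 and -87, and 1 to GAAANNGAAA, starting at -53. GAAANNGAAA was present in 10 of 17 type I list genes with a promoter (58.8%) and in 9 of 15 interferon-γ list genes (60.0%), against 1131 of 32851 promoters (3.44%). TTCNNNGAA was present in 3 of 17 (17.6%) and 8 of 15 (53.3%), against 2726 of 32851 (8.30%). A list gene was counted when any of its promoters matched, while the 32851 are single promoters, so the units of these shares differ. The same window was used for all, and a match is a description of letters only.

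The genes named by size in the treated against naive comparisons included growth factors and receptors. Inhba, encoding the activin A subunit, had 79.1 CPM in Cd226-/-, 108 CPM in WT and 2.18 CPM in naive members (36.3-fold, 24.6 to 55.5, and 49.7-fold, 33.5 to 76.2). An Inhba UMI was found in 29 Cd226-/- members, 20 WT members and 11 naive members. Pgf, placental growth factor, had 48.1 CPM, 39.3 CPM and 1.58 CPM, and Nrg1, the growth factor neuregulin, had 119 CPM, 90.5 CPM and 6.46 CPM. Ramp3, a partner of peptide hormone receptors, had 51.8 CPM, 49.0 CPM and 1.88 CPM. Tnfrsf9, a costimulatory receptor of the tumour necrosis factor family, had 51.8 CPM, 39.9 CPM and 2.25 CPM. Each of these 5 genes was higher in both treated libraries than in naive members. In Cd226-/- and WT, a UMI was found in 10.0% and 9.33% of members for Pgf, and 9.69% and 8.89% for Ramp3. For Tnfrsf9 these were 6.57% and 6.67%, and for Nrg1 46.4% and 34.7%. The C1q macrophages low for Folr2, Lyve1 and Cd163 had more Pgf (445 and 333 CPM), Tnfrsf9 (368 and 336 CPM) and Nrg1 (169 and 107 CPM). They had similar Ramp3 (50.2 and 63.4 CPM) and less Inhba (17.4 and 42.5 CPM). Ifitm1, an interferon-inducible membrane protein gene, had 279 CPM in Cd226-/-, 159 CPM in WT and 16.4 CPM in naive members. Sphk1, the enzyme that makes sphingosine phosphate, had 30.6 CPM, 15.4 CPM and 1.13 CPM.

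Some of the large folds rested on few cells. Wif1, a Wnt inhibitor, had 35.3 CPM in WT members from 3 cells and Sostdc1, also a Wnt and BMP antagonist, had 35.3 CPM from 5 cells, with 54 of 62 UMIs in 1 cell. Both had 0 UMIs in naive members, which makes them at least 157-fold higher in WT against a floor of 3 UMIs over the group. Of the 494 UMIs of Ccl17 in WT members, 346 lay in 1 cell, and of the 174 UMIs of Cxcl9, 123 lay in 1 cell. Gzma and Acta1 in Cd226-/- members had 163 of 179 and 225 of 239 UMIs in 1 cell. In WT members Enpp2, the lysophospholipase autotaxin, had 28.5 CPM against 1.43 CPM in naive members, and fibroblasts of the same libraries had 54.8 CPM and 74.7 CPM.

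Among genes named as lower in treated members, Pla2g2d, a secreted phospholipase, had 8.75 CPM in Cd226-/-, 15.9 CPM in WT and 109 CPM in naive members. It was 12.4-fold (8.31 to 19.4) and 6.81-fold (4.69 to 10.3) lower. In Cd226-/- members the prostaglandin-degrading enzyme gene Hpgd had 2.19 CPM, against 16.5 CPM in WT and 32.6 CPM in naive members. P3h2, a collagen prolyl hydroxylase gene, had 1.09 CPM, 8.54 CPM and 32.3 CPM, and Chp2, a calcium-binding protein gene, had 11.7 CPM, 41.0 CPM and 87.2 CPM. These 3 genes were lowest in Cd226-/- and highest in naive members. Gpnmb, a lysosomal glycoprotein gene, had 37.5 CPM in Cd226-/- and 38.5 CPM in naive members but 5.12 CPM in WT members. Of its 103 UMIs in Cd226-/- members 44 lay in 1 cell, and without the richest cell of either library it was 1.64-fold lower in Cd226-/- than in naive members. Cadm1, an adhesion molecule gene, had 7.29 CPM in Cd226-/-, 5.12 CPM in WT and 37.5 CPM in naive members. The other genes named for the Cd226-/- comparison were Mucl1, Gpr155, Tnfrsf17 and Slc40a1, and for the WT comparison Rapsn, Syngr1, Cd4, Syne1 and Lhfpl2. None of these 9 was above 40 CPM in any library.

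The CD226 ligand genes were measured as well. Pvr had 27.3 CPM in Cd226-/- members, 29.6 CPM in WT members and 15.2 CPM in naive members. Nectin2 had 10.6 CPM, 14.8 CPM and 4.51 CPM. Both were more than 1.5-fold above naive in each treated library, by 1.79-fold (1.36 to 2.35) and 1.94-fold (1.40 to 2.65) for Pvr and by 2.35-fold (1.45 to 3.71) and 3.29-fold (1.99 to 5.29) for Nectin2. Between Cd226-/- and WT members the ratio was 1.08-fold lower for Pvr (0.746 to 1.56) and 1.40-fold lower for Nectin2 (0.792 to 2.46), and both intervals include equality. Cd274, encoding the checkpoint ligand PD-L1, had 58.3 CPM, 55.8 CPM and 18.2 CPM. Of 17 checkpoint and CD226 axis genes compared with naive members, 6 were higher and 3 lower in Cd226-/-, and of 16 compared in WT, 6 were higher and 3 lower.

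What separated Cd226-/- from WT members after the same treatment? Most genes of the MHC class II and interferon-γ response lists were lower in Cd226-/- members. Fewer of the monocyte and inflammatory genes passed 1.5-fold, and most of those that did were higher. Over 7186 genes compared, 4.24% were higher and 5.51% lower in Cd226-/- members. Of 9 MHC class II genes, 5 were lower and 0 higher (median log2 ratio -0.59, beside 0.01 over all genes). H2-Ab1 had 2928 CPM in Cd226-/- members, against 4449.5 CPM in WT members (1.52-fold lower, 1.47 to 1.57). H2-Aa had 4782 CPM against 6935 CPM, H2-Eb1 had 2849 CPM against 4226 CPM, and Cd74, the invariant chain, had 8639 CPM against 12592 CPM. In naive members they had 4326 CPM, 2430.0 CPM and 7785 CPM for H2-Aa, H2-Eb1 and Cd74. By summed UMIs WT members thus held the highest level of the 3 libraries. Cd226-/- members were nearer to naive members by this measure, while their median per cell, given above, was 1.53% against 0.764% in naive members. Ciita, the factor that switches these genes on, had 32.1 CPM in Cd226-/- and 57.5 CPM in WT (1.79-fold lower, 1.33 to 2.41), with 56.8 CPM in naive members. In the C1q macrophages low for Folr2, Lyve1 and Cd163, H2-Aa had 13163 CPM in Cd226-/- and 12202 CPM in WT.

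Of 17 interferon-γ response genes, 10 were lower and 0 higher in Cd226-/- members (median log2 ratio -0.73). Gbp7 had 78.7 CPM in Cd226-/- members against 130.4 CPM in WT members (1.66-fold lower, 1.37 to 2.00). Gbp2, also of the guanylate-binding family that attacks intracellular microbes, had 13.5 CPM against 28.5 CPM (2.11-fold lower, 1.35 to 3.32). The immunity-related GTPase genes Iigp1 and Irgm1 had 26.6 CPM and 22.2 CPM in Cd226-/-, against 49.0 CPM and 39.3 CPM in WT. Fibroblasts had Iigp1 at 176 CPM in Cd226-/- and 177 CPM in WT. Ly6a had 41.9 CPM in Cd226-/- members and 72.3 CPM in WT members, and it is a strong fibroblast gene, with 4683 CPM and 4465 CPM in fibroblasts. Irf1, a transcription factor of the response, had 57.6 CPM in Cd226-/- members against 83.1 CPM in WT members and was lower by less than 1.5-fold. The median was -0.40 with members of at most 5% mitochondrial UMIs, and -0.09 when cells were thinned to 3000 UMIs before the rule was applied. For MHC class I presentation 1 of 13 genes was lower and 0 higher, and all 13 ratios were below 1 (median -0.26). The type I list did not follow: of 19 genes 1 was higher and 1 lower (median -0.01), and Ifi27l2a had 2576 CPM in Cd226-/-, 1456 CPM in WT and 3306 CPM in naive members.

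**Figure D3:**
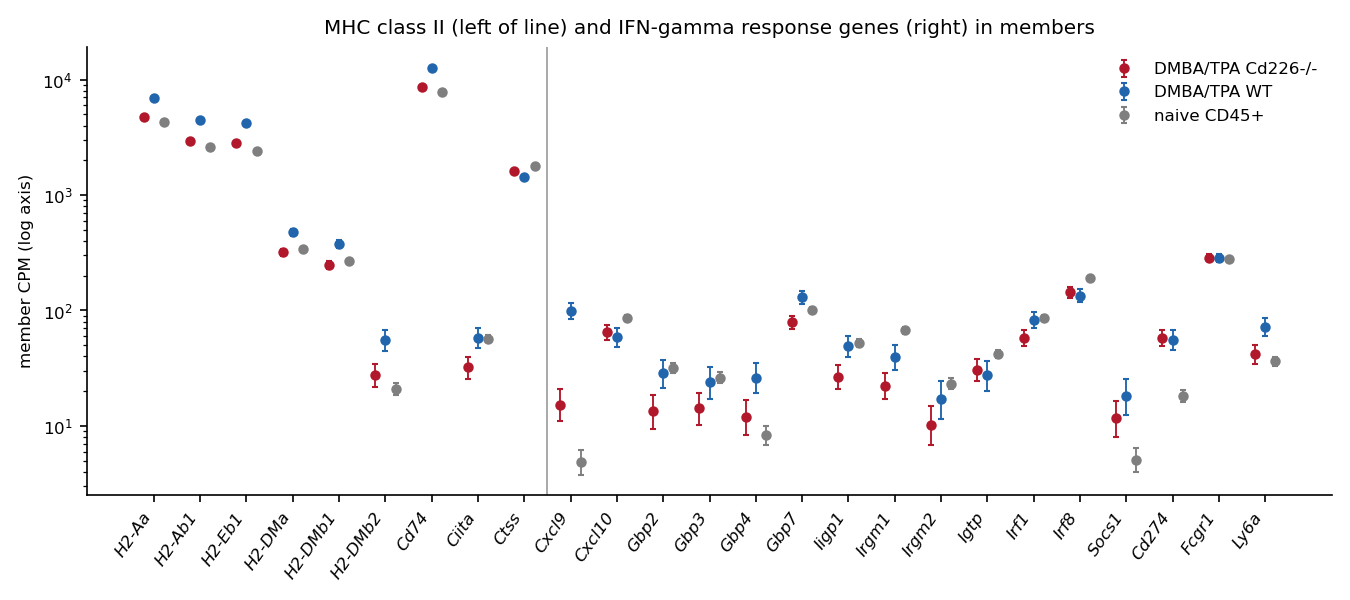
Levels (CPM, log axis) of MHC class II and interferon-γ response genes (1 of the interferon-γ genes is not drawn) in members of the DMBA/TPA Cd226-/-, DMBA/TPA WT and naive CD45+ libraries, with exact 95% Poisson intervals. H2-Aa is at 4782 CPM in Cd226-/-, 6935 CPM in WT and 4326 CPM in naive members.

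Some monocyte and inflammatory genes were higher in Cd226-/- members. Of 16 recruited monocyte genes 5 were higher and 0 lower (median log2 ratio 0.57), among them Vcan, Thbs1, F10 and Clec4e. Of 22 inflammatory genes 8 were higher and 2 lower (median 0.23, and -0.14 when thinned before the rule). Saa3 was 2.59-fold higher (2.36 to 2.84), Osm 1.75-fold (1.56 to 1.97), Ptgs2 1.69-fold (1.51 to 1.89) and Clec4e, a receptor for microbial glycolipids, 1.72-fold (1.46 to 2.02). Saa3 was also high in Cd226-/- fibroblasts, by the values given above. Of 26 cytokine and chemokine receptors 3 were higher and 0 lower, and Il4ra was 1.52-fold higher (1.42 to 1.63).

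Genes named by size as higher in Cd226-/- members included Mt1 and Mt2, metallothioneins that bind zinc and copper. Mt2 had 489 CPM in Cd226-/-, 161 CPM in WT and 127 CPM in naive members (3.05-fold over WT, 2.68 to 3.48), and Mt1 had 1824 CPM, 914 CPM and 1018 CPM (2.00-fold, 1.89 to 2.11). Fibroblasts had 4235 CPM of Mt2 in Cd226-/-, 2664 CPM in WT and 698 CPM in naive skin. Spp1, the secreted protein osteopontin, had 339 CPM in Cd226-/-, 119 CPM in WT and 156 CPM in naive members (2.85-fold over WT, 2.45 to 3.32). Fabp5 was 2.31-fold higher (2.12 to 2.53), and Atp1b1, a sodium pump subunit, had 66.7 CPM, 16.5 CPM and 12.9 CPM (4.04-fold over WT, 2.72 to 6.20). Glo1, which detoxifies methylglyoxal, had 114 CPM in Cd226-/-, 43.3 CPM in WT and 101 CPM in naive members. Fibroblasts showed the same order for Glo1, with 159 CPM, 71.7 CPM and 135 CPM. Of 23 lipid and lysosome genes 5 were higher and 1 lower.

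Among genes lower in Cd226-/- members, Retnla, a secreted protein of alternatively activated mouse macrophages, had 533 CPM, against 1019 CPM in WT and 727 CPM in naive members (1.91-fold below WT, 1.78 to 2.05). A Retnla UMI was found in 21.8% of Cd226-/- members and 32.0% of WT members. Of 19 alternative activation genes compared, 1 was higher and 4 lower, but 12 ratios were above 1 (median log2 ratio 0.10). The transcription factor genes Klf2 and Klf6 had 438 CPM and 1099 CPM in Cd226-/-, against 789.8 CPM and 1705 CPM in WT. Klf6 is also on the list of early response genes, which cell dissociation can induce, and of its 20 genes 2 were lower and 0 higher (median -0.23). Vcam1, an adhesion molecule gene, had 17.9 CPM in Cd226-/- and 53.0 CPM in WT (2.97-fold lower, 2.08 to 4.28), Ubtd1 had 16.8 CPM and 50.7 CPM, and Tppp3, a tubulin-binding protein gene, had 90.8 CPM and 193 CPM. Fibroblasts had 64.1 CPM of Tppp3 in Cd226-/- and 247 CPM in WT. Zc3h12c, an RNase gene, had 8.75 CPM and 29.6 CPM, and Serpine2, a protease inhibitor gene, had 4.37 CPM and 21.6 CPM. Cxcl9 was 6.47-fold lower (4.60 to 9.30), with most WT UMIs in 1 cell as stated above. Ccl17 was 4.06-fold lower (3.43 to 4.83) and 1.58-fold lower once the richest cell of each library was left out, and its log2 ratio turned to 0.50 when cells were thinned to 3000 UMIs before the rule. Of 9 cell cycle genes with enough UMIs 4 were lower and 0 higher.

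The members were set beside the C1q macrophages of the same library that fell short of 5 UMIs of Folr2, Lyve1 and Cd163, called trio-low here: 187 cells in Cd226-/-, 201 in WT and 480 in naive skin. Because the rule made this split, what follows describes it and tests nothing. Resident macrophage genes were higher in members for 21 of 25 genes in Cd226-/-, 21 of 25 in WT and 24 of 25 in naive skin (medians 1.91, 1.91 and 1.38), beside 17.1%, 16.3% and 13.6% of all genes. MHC class II genes were lower for 8 of 9, 8 of 9 and 8 of 10 (medians -1.33, -0.82 and -0.82), beside 9.22%, 9.75% and 4.78% of all genes.

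The genes that set members apart in all 3 libraries included several lectins. Cd209f had 247 CPM in Cd226-/- members against 0.644 CPM in trio-low cells, 149.8 CPM against 2.70 CPM in WT, and 198 CPM against 6.62 CPM in naive skin. Cd209b and Cd209g, of the same DC-SIGN family, followed this order in every library. Fcna, the pattern-recognition lectin ficolin A, had 271 CPM against 7.72 CPM in Cd226-/-, 192 CPM against 3.37 CPM in WT and 179.8 CPM against 10.5 CPM in naive skin. The complement genes C4b and C6 and the endothelin receptor gene Ednrb were also higher: Ednrb had 515 CPM against 67.6 CPM, 481 CPM against 74.2 CPM and 412 CPM against 39.0 CPM. Rcn3, Fgfr1 and Cd209d complete the 10. C4b was at 437 CPM against 41.8 CPM in Cd226-/-, 495 CPM against 70.2 CPM in WT and 570.0 CPM against 72.1 CPM in naive skin.

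The genes named as lower in members than in trio-low cells were of mixed kinds. Rgs1, a damper of chemokine receptor signals, had 376 CPM in members against 2379.8 CPM in trio-low cells in Cd226-/-, 314 CPM against 2093 CPM in WT, and 342 CPM against 1034 CPM in naive skin. Cxcl16, a chemokine held at the membrane, had 169 CPM against 735 CPM, 188 CPM against 729 CPM and 163 CPM against 416 CPM. S100a9, a neutrophil and monocyte alarmin, had 134 CPM against 903 CPM, 28.5 CPM against 294 CPM and 296 CPM against 649 CPM, and single cells held much of it, with 203 of 368 UMIs in 1 Cd226-/- member. Bcl2a1b, Bcl2a1d, Abi3, Gngt2, Cd300c2, Cd52 and Cd72 were also lower in members in every library. Timd4, a phosphatidylserine receptor often used to mark resident macrophages, split the libraries. It had 28.8 CPM in members against 214 CPM in trio-low cells in Cd226-/-, 27.3 CPM against 233 CPM in WT, and 40.7 CPM against 9.36 CPM in naive skin.

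**Figure D4:**
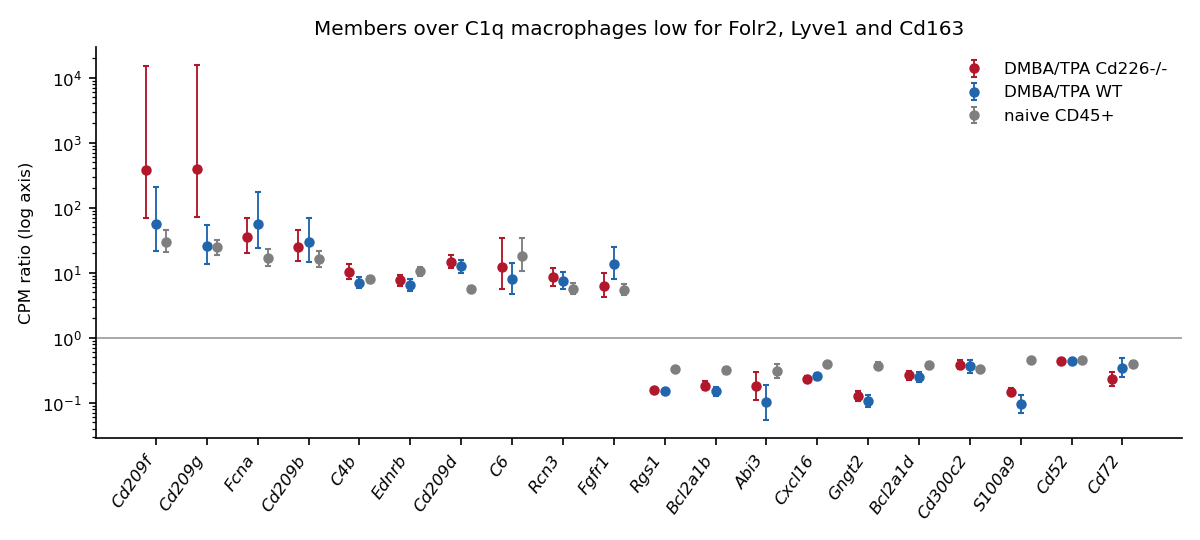
Ratio of CPM (log axis) in members over trio-low C1q macrophages for the 10 genes named as higher and the 10 named as lower, in each library (points, with exact 95% intervals for counting error). Cd209f and Cd209g have the widest intervals in Cd226-/-, where Cd209f was at 0.644 CPM in trio-low cells, and Cd52 lies at nearly the same ratio in the 3 libraries.

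Members with and without a Lyve1 UMI differed in other genes in each library. Cells of at least 3000 UMIs were thinned to 3000 UMIs and split by whether a Lyve1 UMI was left, giving 176 positive and 100 negative cells in Cd226-/-, 132 and 76 in WT, and 238 and 750 in naive skin. Of the resident genes, 16 of 25 were higher in Lyve1-positive cells in Cd226-/-, 13 of 24 in WT and 11 of 25 in naive skin, beside 9.44%, 7.67% and 5.00% of all genes. Of the MHC class II genes, 8 of 9, 1 of 9 and 9 of 10 were lower in Lyve1-positive cells (medians -0.91, -0.46 and -1.04), beside 5.11%, 6.16% and 5.17% of all genes. Lyve1 and the other genes of the rule were left out of these counts, but the split again uses the cells' own counts and is a description.

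Retnla followed Lyve1 closely. It had 794 CPM in Lyve1-positive against 120.2 CPM in Lyve1-negative cells of the Cd226-/- library (6.61-fold, 5.51 to 7.99), 1491 CPM against 324 CPM in WT (4.61-fold, 4.00 to 5.33), and 2314 CPM against 206 CPM in naive skin (11.2-fold, 10.7 to 11.8). Fcna had 391 CPM against 85.2 CPM in Cd226-/-, 283 CPM against 52.0 CPM in WT and 477 CPM against 85.1 CPM in naive skin. H2-Aa ran the other way, with 3649 CPM against 6560.3 CPM in Cd226-/-, 6070.4 CPM against 8422 CPM in WT and 2308 CPM against 4974 CPM in naive skin. Ccr2 had 321 CPM against 639 CPM, 299 CPM against 500.3 CPM and 188 CPM against 268 CPM, in the same order. Lyve1-negative cells were thus higher in Ccr2 and H2-Aa in each library. Ccl22, a chemokine of activated dendritic cells and macrophages, had 17.5 CPM in Lyve1-positive and 262 CPM in Lyve1-negative cells of the Cd226-/- library, 184 CPM and 346 CPM in WT, and 4.67 CPM and 45.6 CPM in naive skin. Ccr7, a homing receptor of migrating dendritic cells, had 65.2 CPM and 274 CPM, 48.0 CPM and 242 CPM, and 5.30 CPM and 12.7 CPM. Median depth before thinning was 7470 and 7523.5 UMIs in Cd226-/-, 6086 and 7936 in WT, and 12136 and 10427 in naive skin for positive and negative cells.

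**Figure D5:**
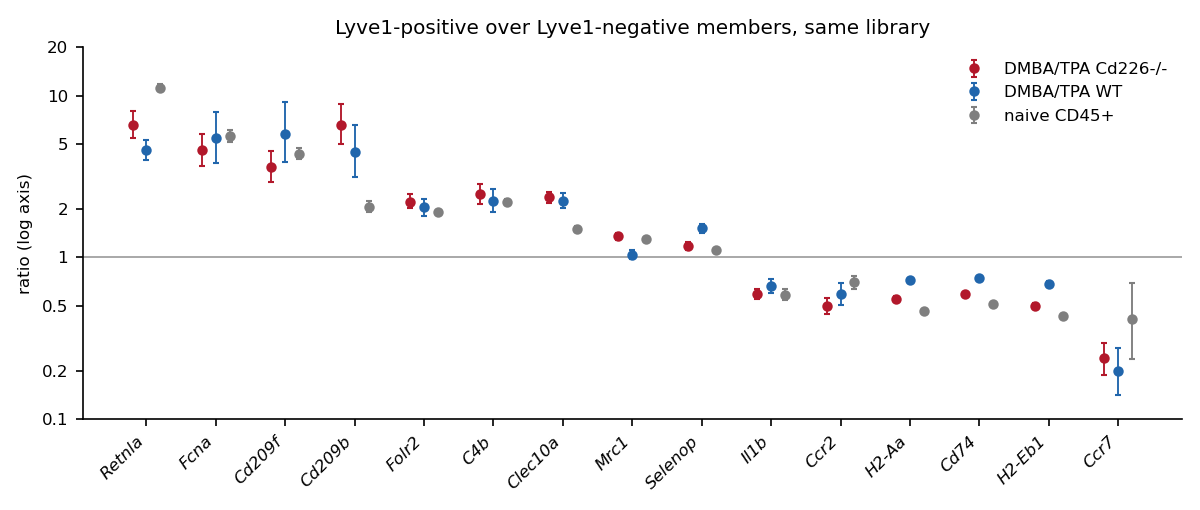
Ratio of CPM (log axis) in Lyve1-positive over Lyve1-negative members for genes chosen after their values were seen, in the DMBA/TPA Cd226-/-, DMBA/TPA WT and naive CD45+ libraries (points, with exact 95% intervals). Retnla is 6.61-fold, 4.61-fold and 11.2-fold higher in Lyve1-positive cells, and H2-Aa is lower in each library.

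Since a larger share of members was Lyve1-positive in the treated libraries than in the naive library, the comparisons with naive skin were repeated over members with a Lyve1 UMI only: 227 in Cd226-/-, 171 in WT and 390 in naive skin. The type I interferon list had medians of -1.59 in Cd226-/- and -1.48 in WT, lower than over all members. The MHC class II medians against naive skin were 0.41 in Cd226-/- and 0.99 in WT, against 0.02 and 0.69 over all members. The resident list had medians of -0.07 and -0.33. This alternative was chosen after seeing the data, and Lyve1 is a gene of the rule.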

How the data were processed

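For 4 single-cell 3′ libraries (10x v3.1), the authors deposited matrices of whole-number UMI counts for 31053 genes and 2 antibody tags in called cells. The submitters' processing notes name Cell Ranger 3.1.0 and the build mm10. Where replicate cultures or animals would be needed for a test there is 1 library per group, from pooled mice.

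Member UMIs were summed per library and divided by the members' total of all gene UMIs (CPM). Levels have exact Poisson intervals, ratios exact conditional binomial intervals and shares Clopper-Pearson intervals (95%). A gene at 0 in a group was set to 3 UMIs over the group and its ratio written as at least that value. Intervals and floors cover counting error only. Genes with at least 50 UMIs over both libraries were compared, and 1.5-fold was the threshold. Doublets were called with Scrublet through scanpy 1.11.5 (expected rate 0.06) and kept, and an alternative left them out. Shares of cells with a Lyve1 UMI were also computed after thinning to 3000 UMIs. The code (pandas 2.3.3, scipy 1.17.1 and numpy 2.4.6 under Python 3.11.15) was tested on simulated data. Scaling by the TMM factors of edgeR 4.0.16, with R 4.3.3, was an alternative.

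The members and the 22 gene lists were chosen with earlier results of these data known. Lists share some genes. Up to 10 genes each way per comparison are named: those whose ratio interval lies farthest from equality, among genes past 1.5-fold both over all members and once each library's richest cell was left out. In the library where it was higher, such a gene also had a member level of at least 0.1 times that of the class of cells with the most of it. Mitochondrial, ribosomal, hemoglobin, immunoglobulin, sex-linked and unnamed genes and the rule genes were left out. Genes of the lists are named beside their list's count. For 4 listed symbols no row was found, and they are not analysed here. Promoters are those of RefSeq, GRCm38.p6. Values of a few single list genes are not reported here.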

Additional observations from a re-analysis of the deposited data

Results flagged for a closer look

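The rule also found 71 cells in the naive CD45- library, which the comparisons do not use and which was sorted against CD45. These were 92.2% of the 77 C1q macrophages kept there (Clopper-Pearson 95% interval 83.8 to 97.1), against 67.7% in the naive CD45+ library. Their CD45 antibody tag had a median of 199 counts, against 644 in naive CD45+ members, and 1 in fibroblasts of the naive CD45- library. Of the 71 cells 57 had a Ptprc UMI.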

How the results depend on the processing

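No paired analysis was possible because each group is 1 library, and for the same reason no replicate could be left out. Scaling by TMM factors, leaving out doublets, weighting cells equally, leaving out each library's richest cell, a gate on rates and the Ptprc-positive or Lyve1-positive members kept every count of genes within 1.5 times. Leaving out doublets removed only 1 Cd226-/-, 1 WT and 6 naive members, so it could hardly move these counts and says nothing about uncalled doublets. Between Cd226-/- and WT members, 20 UMIs in place of 50 gave 600 higher and 834 lower genes, against 305 and 396. With no filter on UMIs there were 1093 higher and 1625 lower genes in that comparison, 1872 higher for Cd226-/- over naive and 1976 higher for WT over naive, because more genes of low counts enter. With cells thinned to 3000 UMIs before the rule, an alternative chosen after seeing the data that leaves fewer members and fewer UMIs, 1117 genes were lower for Cd226-/- over naive, 483 were higher and 904 lower for WT over naive, and 175 were lower for Cd226-/- over WT. Higher genes were then 57.0% of those past 1.5-fold for Cd226-/- over WT, against 43.5%, and the share for WT over naive was 26.1% without the richest cells and 50.03% with no filter, against 36.9%. The member share of Ptprc-positive cells in Cd226-/-, WT and naive skin was 6.57%, 8.71% and 23.3% with 10 UMIs of Folr2, Lyve1 and Cd163, 9.30%, 12.7% and 35.5% with 2 UMIs, 6.92%, 9.20% and 23.7% with at most 5% mitochondrial UMIs, and 5.58%, 8.15% and 15.7% when thinned. Leaving out cells with RNA of other types gave 9.03% in WT and 26.6% in naive skin. In each of these settings with all 3 values the naive share was the highest and the Cd226-/- share the lowest. The log2 ratio of Ccl17 between Cd226-/- and WT members turned to 0.50 when thinned, and the cause was not tested. Thinning also turned the signs of several list medians. For Cd226-/- over naive these included scavenging (0.21), alternative activation (-0.06), growth and repair (0.08), resident (-0.02), early response (-0.05) and cytokine and chemokine receptor genes (-0.10). For WT over naive they included growth and repair genes (-0.05). For Cd226-/- over WT they included inflammatory (-0.14), pattern recognition (-0.31) and cytokine and chemokine receptor genes (-0.05). The cell cycle median for WT over naive, 0.24, was -1.46 when thinned and also turned without the richest cells (-0.13), at 5% mitochondrial UMIs and without admixed cells (both -0.04). Of 924 list medians under alternatives, 821 moved by little and 103 by more, and of 834 ratios of named genes 678 moved by little, 155 by more and 1 turned. The type I interferon median ranged from -1.59 to -0.72 for Cd226-/- over naive and from -1.48 to -0.91 for WT over naive, the MHC class II median for Cd226-/- over WT from -0.73 to -0.54, and the interferon-γ median from -0.74 to -0.09.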

Other observations

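The 71 members of the naive CD45- library were set beside the naive CD45+ members. Of 25 resident macrophage genes outside the rule 13 were higher and 0 lower by 1.5-fold, of 16 recruited monocyte genes 1 was higher and 12 lower, and of 20 inflammatory mediators 1 was higher and 16 lower, beside 13.4% higher and 19.2% lower of 9344 genes compared. Retnla had 12504 CPM in naive CD45- members and 727 CPM in naive CD45+ members (17.2-fold, 16.6 to 17.8). Timd4 had 444 CPM and 40.7 CPM (10.9-fold, 9.18 to 12.9), Fcna had 1364 CPM and 179.8 CPM, Cd209f had 1191 CPM and 198 CPM, and the rule gene Lyve1 had 910.0 CPM and 165 CPM. Mrc1 was close, with 2655 CPM and 2397 CPM. Ccr2 had 34.0 CPM in naive CD45- members and 248 CPM in naive CD45+ members (7.31-fold lower, 4.35 to 13.4), Lpl had 67.9 CPM and 450.4 CPM, and Il1b had 77.7 CPM and 396 CPM. H2-Aa had 2832 CPM and 4326 CPM (1.53-fold lower, 1.44 to 1.62). Fibroblast RNA was also higher in these cells: Col1a1 had 548 CPM in naive CD45- members and 18.2 CPM in naive CD45+ members, and the 7 fibroblast markers summed to 2157 CPM and 103 CPM. The part of that RNA in these values was not tested, and in the 10762 fibroblasts of the naive CD45- library Retnla had 3.94 CPM, Fcna 0.448 CPM and Timd4 0.0896 CPM. These values are descriptions of 1 library each, and the single genes were chosen after their values were seen.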
